A study of Homo sapiens with 9 samples.

Results

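The genes described here are 10 regulators of the passage from G1 into S phase: the D-type cyclins CCND1 and CCND3, the kinases CDK4 and CDK6, the transcription factor E2F1, the CDK inhibitors CDKN1A, CDKN1B and CDKN2C, and the pocket proteins RB1 and RBL2. They were chosen by name as a set of known G1 regulators, with earlier results of these data in view, from a table of 37351 genes, and all 10 passed the filter on low counts that left 19250 genes for testing. LNCaP cells, an established line from a prostate carcinoma metastasis, were kept without serum and calcium for 6 to 12 h and then given recombinant NRG1, the neuregulin that binds HER3. RNA was sequenced at 0, 12 and 24 h, with 3 cultures and so 3 libraries per time. The 12 and 24 h cells had received NRG1 at 15 ng/mL, and the starvation was common to all 9 libraries. The labels call the 0 h libraries NRG1-treated as well, with a time of 0 h, which the paper uses as its baseline. No untreated culture of 12 or 24 h was used here, so an effect of NRG1 and an effect of more time in that medium cannot be told apart. The results hold for 1 cell line, and p-values measure the spread between its cultures.

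D-type cyclins bind CDK4 or CDK6, and the active kinase phosphorylates RB1 and its relatives. The phosphorylated pocket proteins release E2F factors, which switch on genes for DNA synthesis as well as E2F1 and the E-type cyclins. CDKN1A (p21) and CDKN1B (p27) bind cyclin-CDK complexes of several kinds, whereas CDKN2C (p18) binds CDK4 and CDK6 alone. RBL2 (p130) is the pocket protein of resting cells, where it holds cell cycle genes silent as part of the DREAM complex. Growth factors raise cyclin D through ERK and lower CDKN1B through AKT. CCND1, CCND3, CDK4, CDK6 and E2F1 are called activators below, and CDKN1A, CDKN1B, CDKN2C, RB1 and RBL2 inhibitors.

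The libraries held 47016302 to 60985825 counts, with the 0 h libraries the deepest, and mitochondrially encoded genes took 5.02% to 6.09% of them. The 8 luminal prostate markers, KLK3, FOLH1 and HOXB13 among them, were all present and summed to 4330 to 4750 CPM, the reads of a gene relative to the size of its library after scaling by TMM (trimmed mean of M values). Basal markers summed to at most 0.325 CPM and immune markers to at most 0.148 CPM, and the 3 stromal markers to 22.6 to 27.1 CPM, nearly all of it COL1A1. Of the 2 stromal markers tested, COL3A1 rose from a mean of 0.567 CPM at 0 h to 1.13 at 12 h and 1.43 at 24 h (log2 fold change 0.98 and 1.32, edgeR adjusted p = 0.009 and 0.00032). The 2 endothelial markers also moved with time, with sums between 12.7 and 13.7 CPM at 0 h and between 6.9 and 7.95 CPM at 24 h, nearly all of it VWF, with PECAM1 at a mean of at most 0.0169 CPM. Their part in the results below was not tested.

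The start of a gene carries the letters through which E2F and other factors act, so the promoters of 3 genes whose levels moved in opposite directions are shown. RefSeq (GRCh38.p14) gave 15 windows, from 250 bases before to 50 after a transcript start, for 9 of the 10 genes, all but CCND1. The only window of RB1 (chr13:48476200-48476499) lay far inside the gene, so the bases around the annotated start of RB1 were not searched. Each sequence reads 5′ to 3′ on the strand of its gene. In the E2F1 window (chr20:33686336-33686635, minus strand), capitals mark every match to the E2F letters TTTNNCGC on either strand.

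E2F1: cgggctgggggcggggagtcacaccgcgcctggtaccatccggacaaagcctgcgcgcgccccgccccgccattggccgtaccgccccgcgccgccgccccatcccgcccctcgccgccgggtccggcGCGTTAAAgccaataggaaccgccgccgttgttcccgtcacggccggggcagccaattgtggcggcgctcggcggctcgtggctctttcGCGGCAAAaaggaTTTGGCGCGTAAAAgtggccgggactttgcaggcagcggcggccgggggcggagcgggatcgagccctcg

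The window held 4 such matches, counted from the transcript start at -122, -33, -20 and -14, of which the last pair overlap, and E2F1 was the only one of these 9 genes with a match in any of the 15 windows. Over all 35116 windows of the reference table, 6.89% had at least 1. The windows of CDKN1A (chr6:36678464-36678763, plus strand) and CDKN1B (chr12:12717118-12717417, plus strand) held no match to TTTNNCGC, to the CHR letters TTTGAA, to the AP-1 letters TGANTCA or to the ETS letters CCGGAAG. Capitals in them mark GGGCGG, the core of SP1 sites on either strand, a motif added after the data had been seen.

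CDKN1A: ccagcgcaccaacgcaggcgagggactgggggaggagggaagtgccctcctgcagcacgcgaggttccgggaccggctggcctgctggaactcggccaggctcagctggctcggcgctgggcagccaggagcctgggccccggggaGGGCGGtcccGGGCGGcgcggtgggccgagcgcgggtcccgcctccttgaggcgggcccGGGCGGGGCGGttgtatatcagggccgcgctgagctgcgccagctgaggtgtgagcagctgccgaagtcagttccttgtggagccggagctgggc

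CDKN1B: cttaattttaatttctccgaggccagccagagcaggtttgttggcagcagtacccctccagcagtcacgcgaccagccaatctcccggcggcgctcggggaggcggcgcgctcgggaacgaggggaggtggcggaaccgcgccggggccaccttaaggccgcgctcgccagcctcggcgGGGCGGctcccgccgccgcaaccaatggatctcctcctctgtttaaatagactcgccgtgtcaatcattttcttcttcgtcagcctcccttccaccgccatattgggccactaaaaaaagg

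GGGCGG stood at 4 places in the CDKN1A window, the last pair overlapping, at 1 place in that of CDKN1B and at 6 places, not capitalised, in that of E2F1, against 45% of all windows with at least 1. Of the other letters searched, TTTGAA occurred once, 24 bases after a start of RBL2 (15.2% of all windows), and CCGGAAG once, in 1 of the 3 windows of CCND3 (10.3%). TGANTCA occurred at 1 place, in the only window of RB1 (7.71%). GC content was 73.3% for E2F1, 74.3% for CDKN1A and 62.3% for CDKN1B. A match is a string of letters and was not tested for binding.

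Against 0 h, called activators were higher and called inhibitors lower at both times, with 3 of 5 of each kind called. At 12 h against 0 h, 6 of the 10 genes passed the test (edgeR's quasi-likelihood test, Benjamini-Hochberg adjusted p of at most 0.05 over all 19250 genes), where 18.7% of all tested genes did. CCND1, CCND3 and E2F1 rose, against 10.6% of all genes called higher, and CDKN1B, CDKN2C and RBL2 fell, against 8.16% called lower. At 24 h against 0 h again 6 of 10 passed, beside 21.1% of all genes. The same 3 activators were higher (11.6% of all genes), and CDKN1A, CDKN1B and CDKN2C were lower (9.48% of all genes). Among these 10 genes, no activator was called lower and no inhibitor higher at either time. Outside the set the split was not as clean. The CDK inhibitor CDKN2A (log2 fold change 0.20 and 0.45) and the pocket protein RBL1 (0.23 and 0.26) were called higher at both times. The CDK inhibitor CDKN1C was called lower at 24 h (-0.70). All of these called changes were small: none of the called genes reached the 1.5-fold change that the study also asked for. Of all tested genes, 2.37% were called and reached it at 12 h and 3.31% at 24 h. CDK6, with few reads, was 63.7% and 110% higher in the fit at 12 and 24 h but did not pass the test. Both comparisons share the 0 h libraries. RNA was pooled over all cells of a culture, so more RNA per cell and more cells in a phase that expresses a gene cannot be told apart.

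The median log2 fold change of the 5 activators was 0.26 at 12 h and 0.32 at 24 h, and that of the 5 inhibitors was -0.15 and -0.19, beside medians over all tested genes of -0.0084 and -0.0068. Over the 10 genes together the medians were 0.045 and 0.089.

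**Figure D1:**
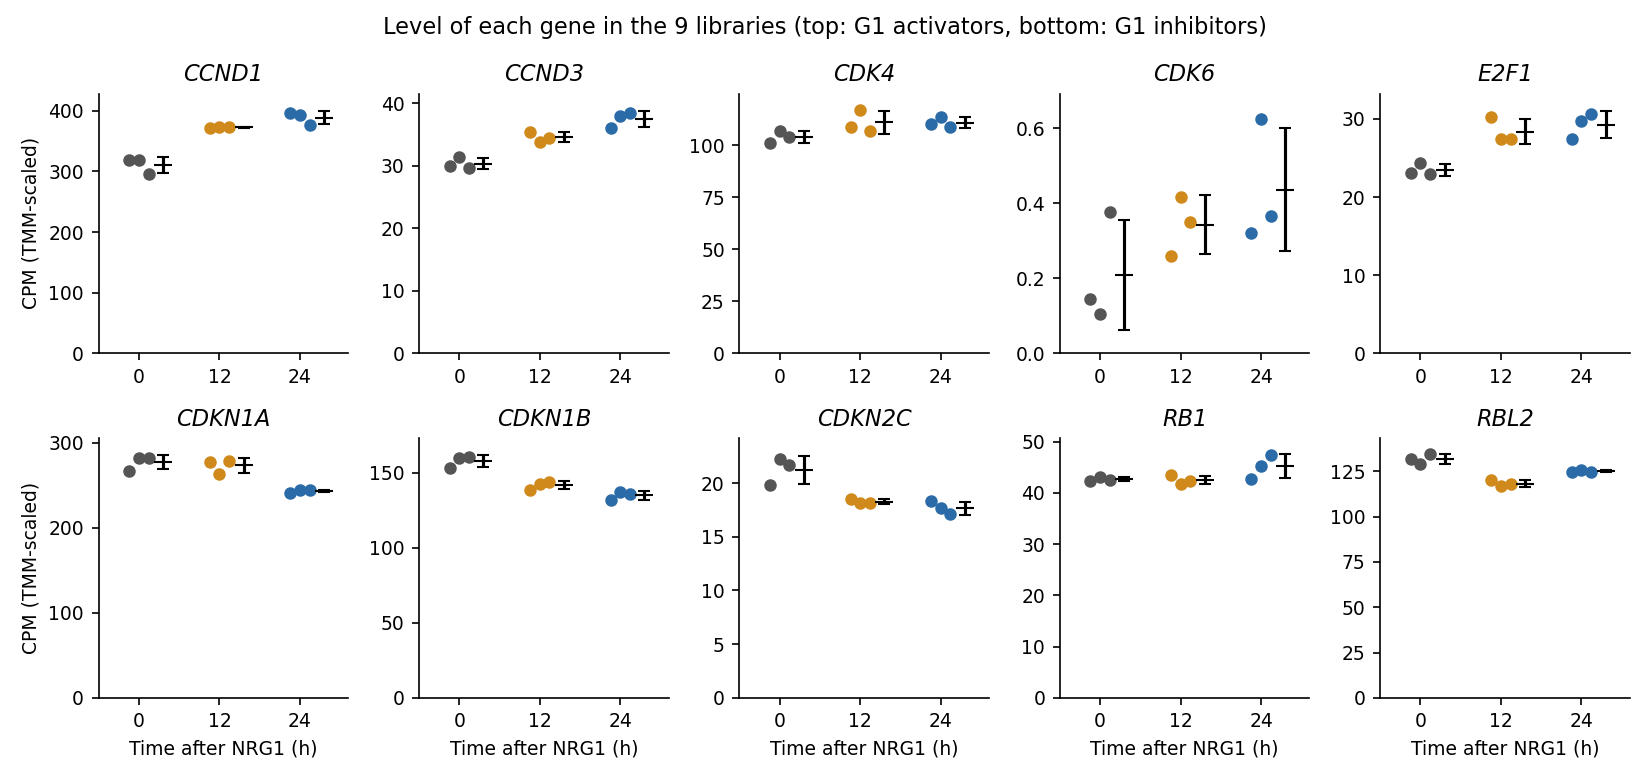
Level of each of the 10 genes in each library, in CPM on TMM-scaled library sizes, against time after NRG1 in hours. Dots are single libraries, and the bar beside them is the mean with the SD (n = 3). The 3 libraries of CCND1 lay at 295.5 to 319.4 CPM at 0 h and at 376.1 to 395.7 CPM at 24 h, and those of CDKN1B at 153.5 to 160.6 and at 131.9 to 137.4 CPM.

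CCND1 (ENSG00000110092.4, chr11:69641156-69654474) encodes cyclin D1 and was the most abundant cyclin D transcript. Its level was 318.4, 319.4 and 295.5 CPM in the 0 h libraries, 372.5, 374.1 and 373.2 CPM at 12 h and 395.7, 393.6 and 376.1 CPM at 24 h. Every library with NRG1 lay above every 0 h library, and the 12 h libraries were nearly level with one another. The mean rose from 311.1 ± 13.5 to 373.3 ± 0.786 and 388.4 ± 10.8 CPM (SD, n = 3), by 20% and 24.9% in the fit. The log2 fold change was 0.26 (SE 0.0329, edgeR adjusted p = 1.62e-07) at 12 h and 0.32 (SE 0.0329, edgeR adjusted p = 1.56e-09) at 24 h.

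CCND3 (ENSG00000112576.13, chr6:41934934-42050357), which encodes cyclin D3, was present at 29.91, 31.38 and 29.72 CPM at 0 h, 35.43, 33.89 and 34.47 CPM at 12 h and 36.06, 38.03 and 38.4 CPM at 24 h. The 3 times did not overlap, and the lowest 24 h library lay just above the highest 12 h library. It rose by 14.1% at 12 h (log2 fold change 0.19, SE 0.0464, edgeR adjusted p = 0.00276) and by 23.7% at 24 h (0.31, SE 0.0461, edgeR adjusted p = 3.59e-06). The remaining D-type cyclin, CCND2, had 2 to 7 reads per library and was too low to be tested. Per kb of exon, the 3 D-type cyclins summed to 70.6 ± 2.94 CPM per kb at 0 h, 84.4 ± 0.0429 at 12 h and 88.1 ± 2.11 at 24 h (mean ± SD, n = 3), of which CCND1 made up 92.5%, 92.9% and 92.6%. The share of CCND3 was 7.46% ± 0.239 at 0 h and 7.39% ± 0.389 at 24 h, a difference within the spread between libraries. At 12 h it was 7.11% ± 0.162, lower than at 0 h by more than either SD, though the libraries overlapped (6.96% to 7.29% against 7.2% to 7.67%).

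CDK4 (ENSG00000135446.17, chr12:57747727-57756013) encodes the kinase that D-type cyclins activate. It had 101.1, 106.9 and 104.1 CPM at 0 h, 108.8, 117 and 107 CPM at 12 h and 110.3, 113.6 and 108.6 CPM at 24 h. The libraries with NRG1 lay above those of 0 h, at 12 h by a narrow margin. The difference did not pass the test: the log2 fold change was 0.093 at 12 h (95% CI 0.018 to 0.17, edgeR adjusted p = 0.075) and 0.092 at 24 h (95% CI 0.017 to 0.17, edgeR adjusted p = 0.0732). It passed at both times without 0 h replicate 2 (0.11 each, edgeR adjusted p = 0.0476 and 0.0482), at 12 h without 12 h replicate 3 (0.12, edgeR adjusted p = 0.0425) and at 24 h without 12 h replicate 2 (0.097, edgeR adjusted p = 0.0453). Other libraries moved it the other way: the 12 h value was 0.057 without 12 h replicate 2 (edgeR adjusted p = 0.4), and the 24 h value was 0.075 without 24 h replicate 2 (edgeR adjusted p = 0.256).

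CDK6 (ENSG00000105810.10, chr7:92604921-92836573), the sister kinase of CDK4, was barely transcribed in these cells. The 0 h libraries held 9, 6 and 22 reads, the 12 h libraries 14, 22 and 17, and the 24 h libraries 15, 34 and 19. The third 0 h library lay among those with NRG1, and all 3 times overlapped. The log2 fold change of 0.71 (SE 0.476, edgeR adjusted p = 0.34) at 12 h and 1.07 (95% CI 0.13 to 2.01, edgeR adjusted p = 0.103) at 24 h did not pass the test. Single libraries decided these values: the 24 h value was 1.80 without 0 h replicate 3 (SE 0.541, edgeR adjusted p = 0.0188) and 0.72 without 24 h replicate 2 (edgeR adjusted p = 0.445). The 12 h value ran from 0.40 without 0 h replicate 2 to 1.44 without 0 h replicate 3 (edgeR adjusted p = 0.676 and 0.0762). Of the transcripts of both kinases per kb of exon, CDK4 made up 99.9% at each time.

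E2F1 (ENSG00000101412.13, chr20:33675477-33686385), an activating E2F factor and itself an E2F target, had 23.12, 24.41 and 22.97 CPM at 0 h, 30.22, 27.46 and 27.49 CPM at 12 h and 27.41, 29.72 and 30.7 CPM at 24 h. Every library with NRG1 was above the 0 h libraries, while 12 and 24 h overlapped. It rose by 20.9% at 12 h (log2 fold change 0.27, SE 0.0541, edgeR adjusted p = 0.000265) and by 24.7% at 24 h (0.32, SE 0.0540, edgeR adjusted p = 2.5e-05). Among the 8 E2F transcripts, summed per kb of exon, E2F1 held 24.5% ± 0.331 at 0 h, 26.4% ± 1.32 at 12 h and 26.3% ± 1.41 at 24 h (mean ± SD, n = 3). E2F4, an E2F that works with pocket proteins as a repressor, held the largest share at 0 h, 31.2% ± 0.944.

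CDKN1B (ENSG00000111276.12, chr12:12685498-12722369) encodes p27, the inhibitor that accumulates when growth factors are withdrawn. It was at 153.5, 159.9 and 160.6 CPM at 0 h, 138.6, 142.7 and 143.6 CPM at 12 h and 131.9, 137.4 and 136 CPM at 24 h. No library with NRG1 reached the lowest 0 h library, and all 24 h libraries lay below those of 12 h. CDKN1B fell by 10.4% at 12 h (log2 fold change -0.16, SE 0.0332, edgeR adjusted p = 0.000552) and by 14.5% at 24 h (-0.23, SE 0.0333, edgeR adjusted p = 2.45e-06).

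CDKN1A (ENSG00000124762.14, chr6:36676460-36687337), which encodes p21, followed another course. Its level was 267, 282.2 and 281.9 CPM at 0 h, 277.5, 263.1 and 278.7 CPM at 12 h and 241.2, 243.7 and 244.3 CPM at 24 h. The 0 and 12 h libraries overlapped, and all 24 h libraries lay below both. The log2 fold change was -0.021 at 12 h (95% CI -0.087 to 0.045, edgeR adjusted p = 0.736) and -0.19 at 24 h (SE 0.0325, edgeR adjusted p = 3.21e-05), a fall of 12.3%.

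CDKN2C (ENSG00000123080.12, chr1:50960745-50974634), the INK4-type inhibitor p18, had 19.78, 22.27 and 21.67 CPM at 0 h, 18.55, 18.11 and 18.15 CPM at 12 h and 18.28, 17.64 and 17.07 CPM at 24 h. All libraries with NRG1 lay below those of 0 h, while 12 and 24 h overlapped. It fell by 13.9% at 12 h (log2 fold change -0.22, SE 0.0587, edgeR adjusted p = 0.00709) and by 16.8% at 24 h (-0.27, SE 0.0590, edgeR adjusted p = 0.000845). The 12 h call was lost without 0 h replicate 2 (-0.18, edgeR adjusted p = 0.0534), the 0 h library with the highest level.

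RB1 (ENSG00000139687.16, chr13:48303744-48599436) encodes the retinoblastoma protein, whose activity is set mainly by phosphorylation, which RNA does not show. It had 42.4, 43.08 and 42.46 CPM at 0 h, 43.44, 41.78 and 42.38 CPM at 12 h and 42.81, 45.33 and 47.48 CPM at 24 h. The libraries of the 3 times overlapped, with 2 of the 24 h libraries above all others. The log2 fold change was -0.0037 at 12 h (95% CI -0.092 to 0.085, edgeR adjusted p = 0.971) and 0.085 at 24 h (95% CI -0.0031 to 0.17, edgeR adjusted p = 0.179).

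RBL2 (ENSG00000103479.17, chr16:53433977-53491648) had 131.7, 129 and 134.4 CPM at 0 h, 120.2, 116.7 and 117.8 CPM at 12 h and 124.9, 125.6 and 124.7 CPM at 24 h. The 12 h libraries were the lowest and the 24 h libraries lay between them and those of 0 h, without overlap. RBL2 fell by 10.2% at 12 h (log2 fold change -0.16, SE 0.0329, edgeR adjusted p = 0.000597). At 24 h the value of -0.074 (95% CI -0.14 to -0.0077, edgeR adjusted p = 0.11) did not pass. RBL2 supplied most RB family transcript per kb of exon, 64.7% ± 0.345 at 0 h, 61.2% ± 0.373 at 12 h and 61.4% ± 0.926 at 24 h. RBL1 (p107), the family member that is itself an E2F target, went from 8.89% ± 1.08 to 11% ± 0.451 and 10.6% ± 0.607, and RB1 from 26.4% ± 0.83 to 27.8% ± 0.11 and 28.0% ± 1.09 (SD, n = 3). Their sum was 25.1 ± 0.615, 23.8 ± 0.459 and 25.1 ± 0.332 CPM per kb.

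**Figure D2:**
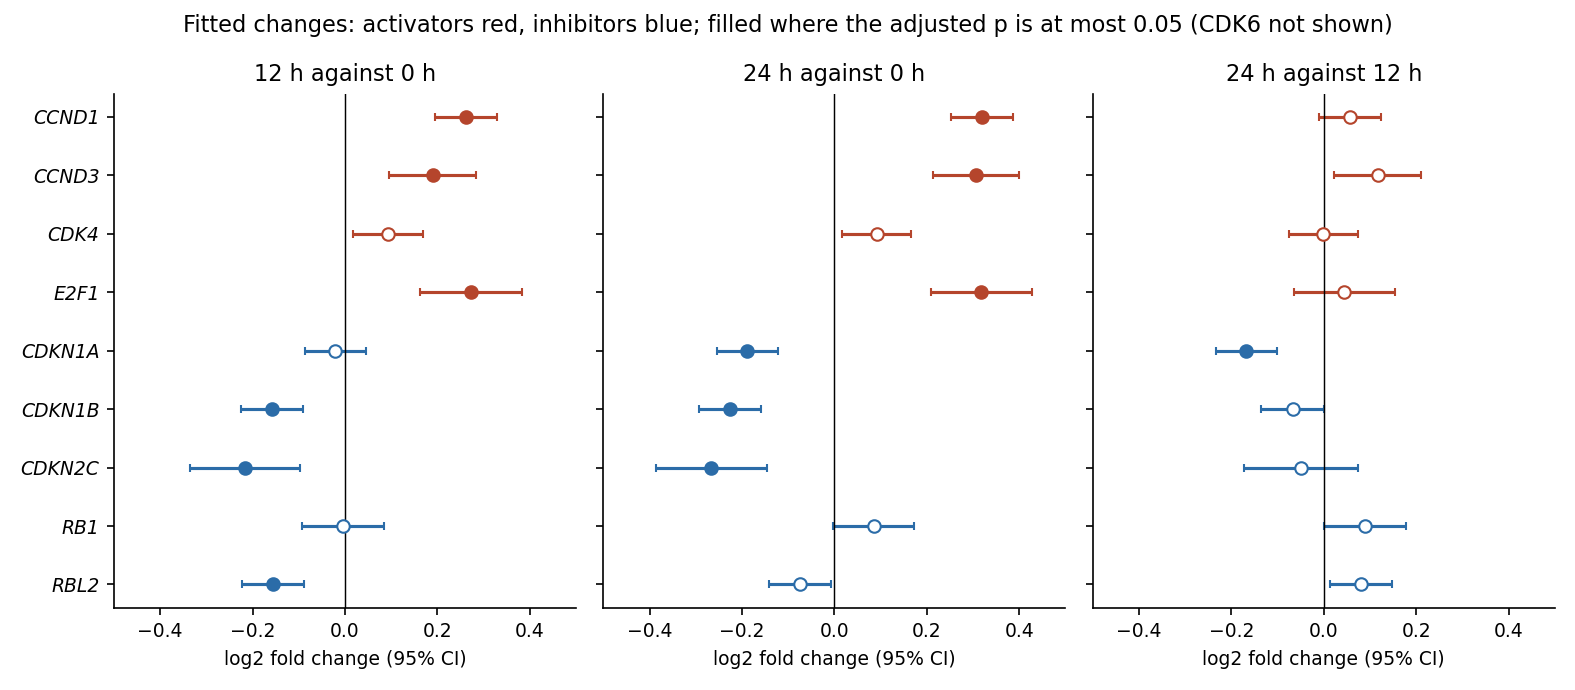
Fitted log2 fold change of 9 of the 10 genes in the 3 comparisons, with 95% confidence intervals. Activators are red and inhibitors blue, filled circles passed an adjusted p of 0.05, and CDK6 is not shown because its interval at 24 h ran from 0.13 to 2.01. Against 0 h, filled activators stand right of 0 and filled inhibitors left of it.

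Between 12 and 24 h, 1 of the 10 genes passed the test, where 6.08% of all genes did. That was CDKN1A, which fell by 0.17 on the log2 scale (SE 0.0326, edgeR adjusted p = 0.00083), or by 11%, while 3.05% of all genes were called lower and 3.03% higher. None of the 10 reached 1.5-fold, beside 0.452% of all genes. For CCND1 the 12 to 24 h value was 0.057 (edgeR adjusted p = 0.359), for CCND3 0.12 (edgeR adjusted p = 0.142) and for CDKN1B -0.068 (edgeR adjusted p = 0.268). RBL2 was 0.081 higher at 24 h than at 12 h on the log2 scale, and its interval of 0.014 to 0.15 did not hold 0, yet it missed the adjusted threshold (edgeR adjusted p = 0.156). The other values lay between -0.050 (CDKN2C) and 0.36 (CDK6), without a call.

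The balance of activators and inhibitors was computed per library as the mean log2 CPM of the 5 activators less that of the 5 inhibitors, set to a mean of 0 at 0 h. It was -0.0231, -0.112 and 0.135 in the 0 h libraries, 0.366, 0.504 and 0.412 at 12 h and 0.47, 0.671 and 0.514 at 24 h. All libraries with NRG1 lay above all 0 h libraries, and 12 and 24 h overlapped. The mean was 0.427 ± 0.0701 at 12 h and 0.552 ± 0.106 at 24 h (mean ± SD, n = 3), given as a description without a test. Genes outside the set, CDKN2A, RBL1 and CDKN1C among them, were not part of the balance. Activators contributed 0.317 ± 0.0528 and 0.418 ± 0.115, and inhibitors -0.111 ± 0.0175 and -0.134 ± 0.0128. Part of the activators' share came from the few reads of CDK6, and with CDK6 left out the balance was 0.315 at 12 h and 0.392 at 24 h.

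**Figure D3:**
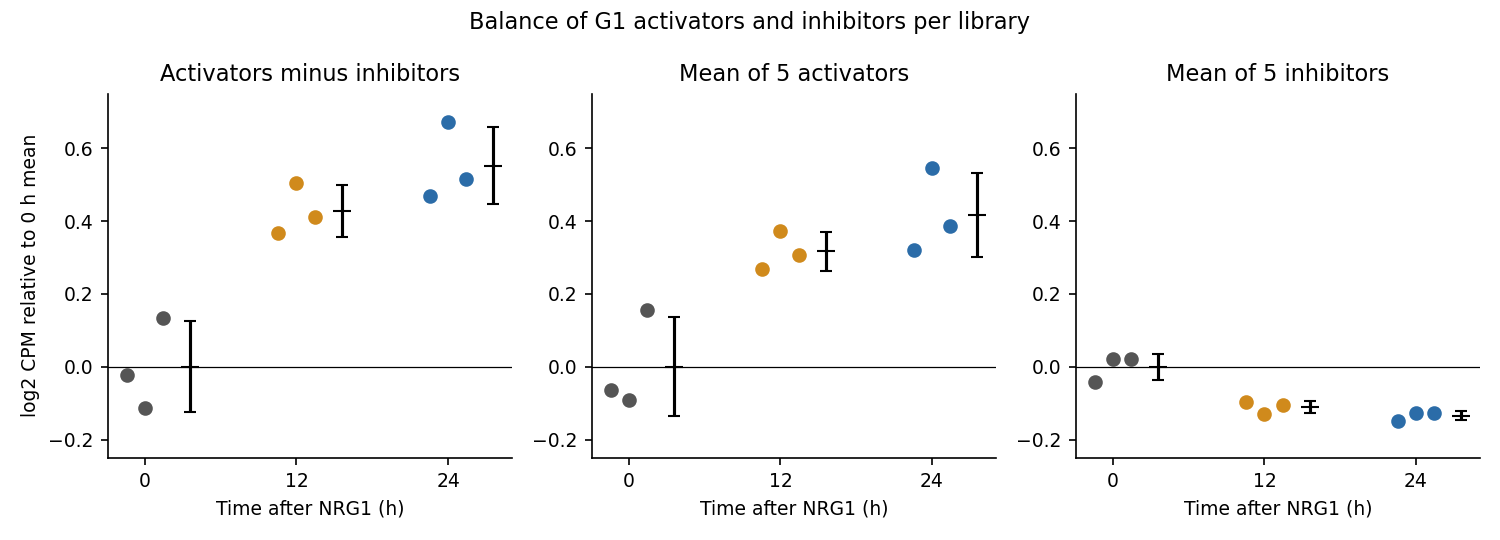
Balance of G1 activators and inhibitors in each library (left), with the mean of the 5 activators (middle) and of the 5 inhibitors (right), on the log2 CPM scale relative to the 0 h mean. Dots are libraries and bars the mean with the SD (n = 3). The balance lay between -0.112 and 0.135 at 0 h and between 0.366 and 0.671 in the libraries with NRG1, and the right panel moves less than the middle one.

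A ratio of 2 genes within a library does not depend on how libraries are scaled. There were 1.97 ± 0.119 CCND1 reads for each CDKN1B read at 0 h, 2.64 ± 0.0463 at 12 h and 2.88 ± 0.117 at 24 h (mean ± SD, n = 3). For each CDKN1A read there were 1.12 ± 0.0725, 1.37 ± 0.0468 and 1.60 ± 0.0526 CCND1 reads. The former ratio did not overlap between times, lying between 1.84 and 2.07 at 0 h, between 2.6 and 2.69 at 12 h, and between 2.77 and 3.00 at 24 h. The latter ran from 1.05 to 1.19, from 1.34 to 1.42 and from 1.54 to 1.64, also without overlap.

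Levels between genes were compared per kb of exon. Exons of all annotated transcripts of a gene were merged for its length, which was 2690 bases for E2F1 and 9255 for CDKN1B. The order below and all family shares depend on these lengths as well, which the spread between libraries does not measure. At 0 h the order was CDKN1A (92.5 ± 2.9 CPM per kb), CCND1 (65.3 ± 2.84), CDK4 (33.6 ± 0.937), CDKN1B (17.1 ± 0.423), RBL2 (16.2 ± 0.333), E2F1 (8.74 ± 0.294), CDKN2C (7.04 ± 0.431), RB1 (6.63 ± 0.0585), CCND3 (5.27 ± 0.158) and CDK6 (0.017 ± 0.012). Of the neighbours in this order, CDKN2C and RB1 overlapped between libraries and the other pairs did not. The lead of CDKN1A over CCND1 was gone by 24 h, when CDKN1A was at 81.1 ± 0.549 and CCND1 at 81.6 ± 2.26 CPM per kb, with overlapping libraries. CCND3, below RB1 in every 0 h library, was at 6.51 ± 0.218 CPM per kb at 24 h beside 7.03 ± 0.363 for RB1, with overlapping libraries, and CDKN2C had dropped below both, to 5.85 ± 0.201.

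The 7 CDK inhibitor transcripts, 4 of them outside the set of 10, summed to 131 ± 3.32 CPM per kb at 0 h, 127 ± 2.38 at 12 h and 116 ± 0.964 at 24 h. CDKN1A made up 70.7%, 71.6% and 69.7% of the sum and CDKN1B 13.1%, 12.0% and 12.5%. These shares rest on the merged exon lengths, 2996 bases for CDKN1A and 9255 for CDKN1B. Without division by length, the 0 h means were 277 CPM for CDKN1A and 158 CPM for CDKN1B. CDKN2A moved the other way, from 3.88% ± 0.154 to 4.59% ± 0.242 and 5.95% ± 0.173.

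**Figure D4:**
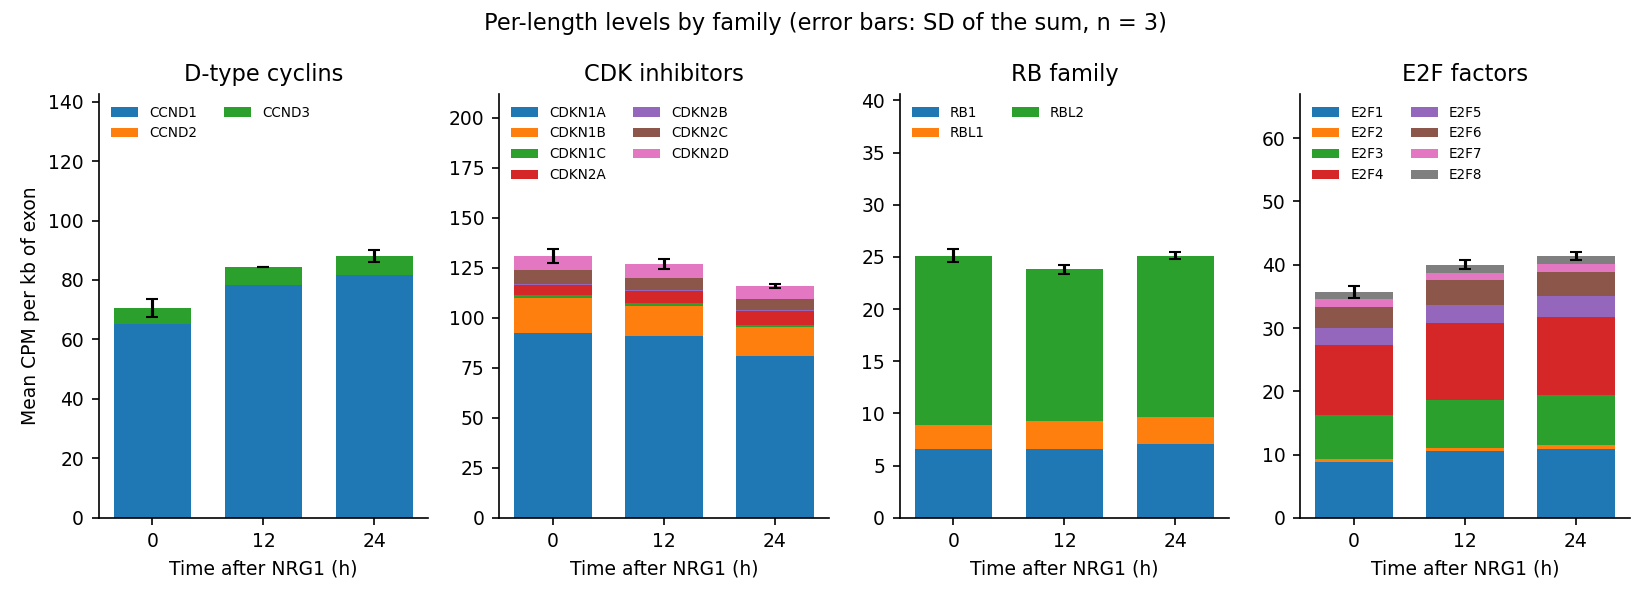
Summed level of each transcript family in mean CPM per kb of exon at 0, 12 and 24 h, with colours for the genes and error bars for the SD of the sum (n = 3). CCND1 fills nearly the whole bar of the D-type cyclins, which goes from 70.6 to 88.1 CPM per kb, and CDKN1A most of that of the CDK inhibitors, which goes from 131 to 116.

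Around these 10 genes, 54 further genes of the G1 pathway were followed in 7 lists, of which 53 could be tested. At 12 h, 20 were called higher and 1 lower, and at 24 h 21 higher and 2 lower, with median log2 fold changes of 0.12 and 0.11. Over all tested genes the shares were 10.6% higher and 8.16% lower at 12 h, and 11.6% and 9.48% at 24 h. From 12 to 24 h, 1 was higher, CDKN2A, and 3 were lower, CDKN1C and, named after their values were seen, CCNA2 (-0.22, edgeR adjusted p = 0.0149) and CKS1B (-0.20, edgeR adjusted p = 0.0177). Over all tested genes 3.03% were called higher and 3.05% lower between these times.

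Of 12 genes for DNA replication and nucleotide supply that E2F factors are known to activate, 9 were called higher at 12 h and 9 at 24 h, none lower, beside 10.6% and 11.6% of all genes called higher. Their median log2 fold changes were 0.22 and 0.21. MCM6 and MCM5, subunits of the replicative helicase, were higher by 0.46 and 0.30 at 12 h and by 0.40 and 0.30 at 24 h. CDT1, which loads that helicase, rose by 0.22 and 0.30, and RRM2, a ribonucleotide reductase subunit, by 0.22 and 0.26. Of the 9 E2F and DP factors, 1 was called higher at 12 h, about the share of all genes (10.6%), and 3 at 24 h (11.6% of all genes). E2F5, a repressor E2F, rose by 0.21 and 0.40, and E2F3 (0.18) and E2F4 (0.14) rose at 24 h.

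Of the 8 tested G1 cyclins, CDKs and CDK activators outside the set, 3 were called higher at 12 h and 2 at 24 h, beside 10.6% and 11.6% of all genes. CCNE1, cyclin E1, rose by 0.26 and 0.33, and CDK7, the kinase that activates other CDKs, by 0.20 and 0.16. CDC25A, a phosphatase that activates CDKs, rose by 0.28 at 12 h, and its value at 24 h was 0.18 (edgeR adjusted p = 0.0924). Of the 4 other CDK inhibitors, CDKN2A rose by 0.20 and 0.45, and CDKN1C (p57) fell by 0.70 at 24 h after -0.095 at 12 h (edgeR adjusted p = 0.702). Of 7 genes of the RB family and the MuvB complex, the partner of RBL2 in DREAM, only RBL1 was called, higher by 0.23 and 0.26, so that the list's share was near that of all genes. Of 9 genes for the turnover of G1 regulators, 3 were higher at each time (10.6% and 11.6% of all genes), CUL1 (0.15 and 0.14) and AMBRA1 (0.15 and 0.15), parts of ubiquitin ligases, at both, SKP1 (0.097) at 12 h and FBXO31 (0.25) at 24 h. Upstream, MYC rose by 0.53 and 0.46, and FOXO3, a factor that activates CDKN1B and is held back by AKT, fell by 0.27 and 0.20.

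**Figure D5:**
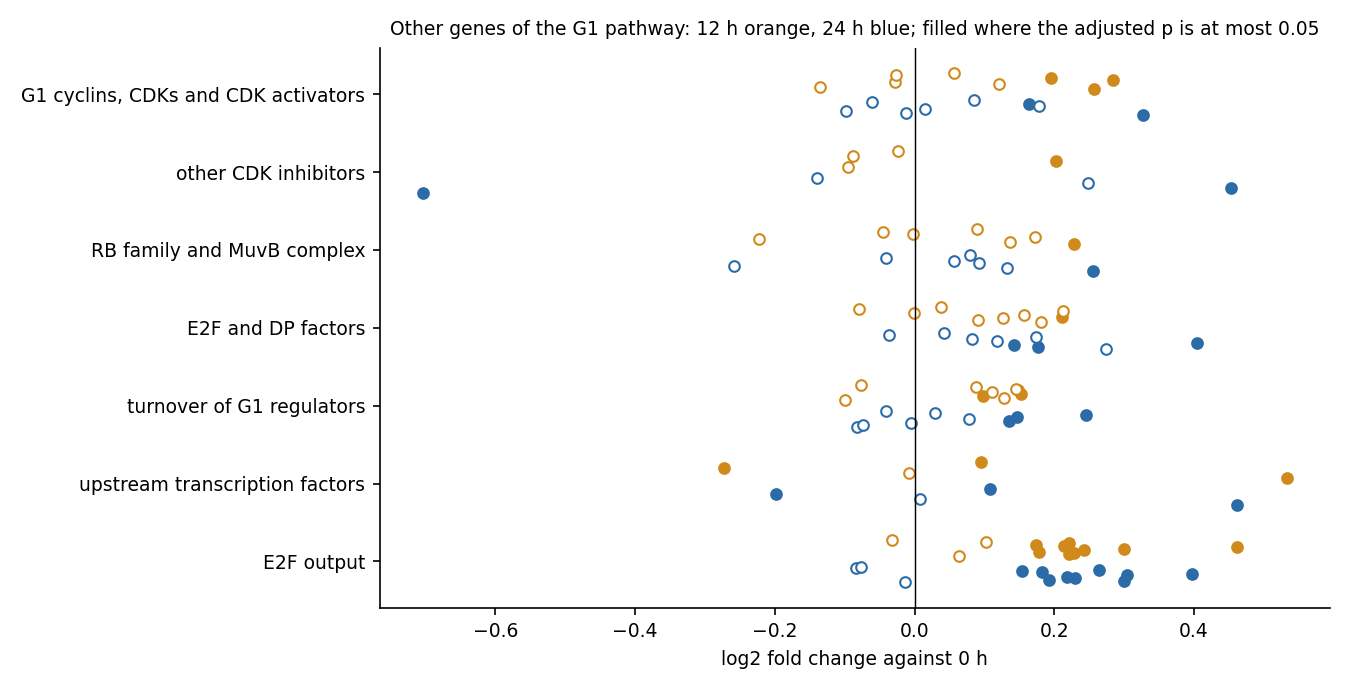
Log2 fold change against 0 h of each tested gene in the 7 further lists of the G1 pathway, at 12 h (orange) and 24 h (blue), filled where the adjusted p was at most 0.05. In the E2F output list 9 of 12 genes are filled and right of 0 at each time, and in the list of other CDK inhibitors CDKN1C at -0.70 and CDKN2A at 0.45 stand on opposite sides at 24 h.

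The genes most like CCND1, the member with the largest called rise at 24 h, over the 9 libraries were CCM2 (Pearson r = 0.992 of log2 CPM), TPD52 (0.980) and LRP8 (0.980) among 8395 genes whose log2 CPM averaged 4 or more. For CDKN2C, the member with the largest called fall, they were SAR1A (0.982), SYMPK (0.974) and GOLGA2P10 (0.974). The libraries share 3 times, so these values are descriptions of a common course in time.

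Some members share exon bases with a gene on the opposite strand, and the counting was not stated to use strand, so reads of the pair may not be separable. RBL2 shares 609 bases with AKTIP, whose count was 50.5% of its own, CDK4 shares 1369 bases with TSPAN31 (21.7%) and CCND1 shares 497 bases with LTO1 (4.66%). The partners' log2 fold changes, none called, were -0.048 and 0.065 for AKTIP, -0.018 and -0.14 for TSPAN31, and 0.13 and 0.12 for LTO1 at 12 and 24 h. Beside these partners, near-identical stretches were found for CDKN2C, with a gene not analysed here, and for RBL2, with a gene of 73 counts over all libraries.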

How the data were processed

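LNCaP cells were profiled by mRNA sequencing at 0, 12 and 24 h after NRG1, with 3 libraries per time grouped by their titles. Per the study's methods, the authors trimmed read pairs with Cutadapt, aligned them to GRCh38.p13 with STAR and counted genes of a GENCODE annotation with featureCounts. Whether strand was used, and what was done with multi-mapping reads, was not given in the sources used here. The authors deposited whole-number raw counts, a column for each library, and 14 empty columns were not used. The study dropped 1 LNCaP replicate of time 0. Its captions give 3 replicates throughout for NRG1 and a varying number for ASPN, the other ligand tested, which places the dropped library with ASPN. All 3 of the NRG1 series were used here, and each library was left out in turn.

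Counts were filtered with filterByExpr, scaled by TMM (trimmed mean of M values) and fitted with edgeR 4.0.16 in R 4.3.3 (robust quasi-likelihood, 9 libraries, no covariate), with Benjamini-Hochberg adjustment over 19250 genes. Balances used a prior count of 2. The 10 genes, the lists and the tests were chosen with earlier results of these data known. From each list, called genes were named, at most the 4 largest, and some that meet this rule are not reported here. Levels per kb used exon lengths of a GENCODE GRCh38 annotation, merged over all transcripts of a gene, and promoters are those of RefSeq. BLAST 2.17.0 was used to look for near-identical copies (at least 95% identity over 150 bases). DESeq2 1.42.0 and other settings were alternatives, and the methods were tested on simulated data. Reads had no molecular identifiers, so precision from depth covers counting error only.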

Additional observations from a re-analysis of the deposited data

Results flagged for a closer look

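A direct test of 24 h against 12 h (edgeR's quasi-likelihood test, adjusted over all genes) called 6.08% of all genes. By this test the effects at 12 and at 24 h differed for the 3 genes below. The effects also differed for CCNA2 (-0.22 on the log2 scale, edgeR adjusted p = 0.0149) and CKS1B (-0.20, edgeR adjusted p = 0.0177), given above. CDKN1A differed by -0.17 on the log2 scale (edgeR adjusted p = 0.00083), with all 3 of the 24 h libraries below the other 6. CDKN1C, a further CDK inhibitor, differed by -0.61 (edgeR adjusted p = 0.00619), with means of 3.96 ± 0.555 CPM at 0 h, 3.71 ± 0.585 at 12 h and 2.43 ± 0.0667 at 24 h (mean ± SD, n = 3). CDKN2A differed by 0.25 (edgeR adjusted p = 0.00225), with means of 19.7 ± 0.271, 22.7 ± 0.914 and 26.9 ± 0.726 CPM.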

How the results depend on the processing

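Of the 13 calls among the 10 genes, 233 of 234 values under 18 alternatives that left the threshold as it was (DESeq2, other scalings and filters, the replicate block, each library left out, thinning to equal depth, no mitochondrial genes) stayed on the same side with the same sign. The exception, CDKN2C at 12 h, is given above. Asking for 1.5-fold left 0, 0 and 0 of the genes called at 12 h, 24 h and between them, and testing against 1.2-fold with glmTreat also left 0, 0 and 0, since the changes were small. Over all genes these settings left 457, 638 and 87, and 358, 607 and 46. With the replicate block, members called were 6, 7 and 1, CDK4 at 24 h being the addition (0.092, edgeR adjusted p = 0.0498). Same-numbered libraries did not deviate together (r from -0.0367 to 0.0295 over 9 pairs), so the numbers were not taken as pairs. CDK4 at 12 h passed after thinning (0.10, edgeR adjusted p = 0.0488). Leaving out libraries gave 6 to 7 members called at 12 and 24 h, and 685 to 1449 of all genes between 12 and 24 h in place of 1171, with 776 without 12 h replicate 1, 685 without 12 h replicate 2 and 757 without 24 h replicate 3. Signs turned only in values near 0 that were never called: CDKN1A at 12 h ran from -0.043 to 0.0095 and RB1 at 12 h from -0.016 to 0.013 with libraries left out, and CDK4 from 12 to 24 h from -0.027 to 0.040, and 0.011 with no scaling factor. The balance was 0.371 to 0.495 at 12 h and 0.492 to 0.619 at 24 h with libraries left out, and 0.315 and 0.392 with CDK6 left out, a setting chosen after seeing the data, as were thinning, the removal of mitochondrial genes and the SP1 letters. CDK6, at 6 to 34 reads, limits any statement on that gene, RNA does not show the phosphorylation of RB1, and the time without serum cannot be told apart from NRG1.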
